A study of Mus musculus with 20 samples.

Results

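Of the SOX genes outside Sox1, Sox2, Sox7 and Sox17, 10 members were described here by their open chromatin. Sox3, Sox12, Sox14, Sox18, Sox30 and Sry were not among them. The members were Sox4, Sox5, Sox6, Sox8, Sox9, Sox10, Sox11, Sox13, Sox15 and Sox21. Their regions were chosen by position alone, as all listed ATAC-seq peaks that overlapped 1 of these genes or lay at most 50000 bp from it, and 155 of the 102373 peaks met this rule. No accessibility value beyond the listing of a peak entered this rule, and no peak was shared between members. The members and the rule were set with earlier results of these data known. Every member had a peak at most 1000 bp from an annotated transcription start site (TSS), and these peaks reached a width of 2470 bp at Sox11. Around them the loci differed widely, from 4 peaks at Sox8 to 35 across the long gene Sox5 and a run of 28 neighbouring peaks that contains Sox21.

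The data come from ZHBTc4 mouse embryonic stem (ES) cells, in which a Tet-Off promoter regulates Pou5f1, the gene that encodes OCT4. Doxycycline (dox) switches off this promoter. All cells carried a lentiviral OCT4 fused to a SNAP tag and to a mitotic degron from Cyclin B1 (SNAP-MD-OCT4) or to a mutated degron (SNAP-MD*-OCT4), driven by the PGK promoter, together with YPet-MD, which marks progress through G1. The peak list was merged over 16 libraries, all from cells given dox at 1 ug/ml during 40 h. All of these cells had also been stained with Hoechst, and they were sorted by their YPet-MD and Hoechst signal. Each construct had been sorted into the phases late S/G2, S, late G1 and early G1, with 2 replicates per group. A further 4 libraries of unsorted cells without dox did not enter the merge. ATAC-seq marks open DNA by the insertion of adapters with a transposase. The list holds coordinates alone and nothing from any separate library, so it can compare neither the constructs nor the phases, and a region open in 1 library counts like one open in all 16. A peak's width is that of the merged region and need not be its extent in any single library. No test was possible, and each comparison with other genes or peaks below is a description.

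SOX proteins are transcription factors with an HMG box, a domain that binds the minor groove of DNA at sequences like CATTGT and bends it. Families are named by letter. SoxC factors (Sox4, Sox11) are known from progenitors and developing neurons, SoxD factors (Sox5, Sox6, Sox13) lack an activation domain and often modulate other SOX proteins, and SoxE factors (Sox8, Sox9, Sox10) act in neural crest, cartilage, gonad and glia. Sox15, the SoxG gene, is expressed in ES cells and can bind with OCT4, and Sox21, a SoxB2 gene, counteracts SoxB1 factors such as SOX2 in neural progenitors. In ES cells SOX2 and OCT4 bind side by side at a composite element, here called OCT4::SOX2.

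Sequences that resemble this element or a single SOX site were therefore searched in the central 200 bp of each peak, on both strands. OCT4::SOX2 was CATTGTT followed directly by ATGCAAAT, with up to 2 mismatches. It matched 2 of the 155 peaks (1.29%, Wilson 95% interval 0.355 to 4.58), and the background over all peaks of the list was 0.124%. The interval lies above that value, but it rests on 2 peaks, and with up to 3 mismatches the same 2 peaks stood against 0.915% of all peaks. Both matches lay in distal peaks, those farther than 1000 bp from any TSS, and they are shown because they are the members' nearest counterparts of the element that gives the study its question. Capitals mark the match, 40 bases stand on either side, and positions here and below are those of the mouse build GRCm38.
Sox9, chr11:112811226-112811320, plus strand: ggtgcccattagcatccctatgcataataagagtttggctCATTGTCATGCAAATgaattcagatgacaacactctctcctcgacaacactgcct
Sox6, chr7:115866127-115866221, minus strand: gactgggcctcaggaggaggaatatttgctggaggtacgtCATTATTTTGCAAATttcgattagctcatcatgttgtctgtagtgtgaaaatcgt
The Sox9 match differed from the consensus by 1 substitution, T7C, counted from 1 at the first base of the consensus and written with the consensus base first. It contained an exact octamer, so the same peak was also counted for the OCT motif. The peak was 1027 bp wide, lay between genes 29083 bp downstream of the 5′ end of Sox9, and had its match 34 bp from the peak centre. Among all peaks, only 16 (0.0156%) had a central match with at most 1 mismatch. The Sox6 match carried 2 substitutions, G5A and A8T, in a 915 bp intronic peak 172598 bp into the gene, and it was no longer counted with 1 mismatch allowed.

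The SOX motif was written as CCATTGTC, CCATTGTT, CCTTTGTC or CCTTTGTT. It was present in the centre of 14 of the 155 peaks (9.03%, Wilson interval 5.46 to 14.6), and the background over all peaks was 6.16%, inside that interval. These 14 peaks were spread unevenly, with 5 at Sox5, 4 at Sox13, 3 at Sox21 and 1 each at Sox6 and Sox9. No central match was found at Sox4, Sox11, Sox8, Sox10 or Sox15. For each member that had one in a distal peak of an intron or between genes, the match in the widest such peak is shown, with the match in capitals and read along its own strand.
Sox5, chr6:144273353-144273440, minus strand: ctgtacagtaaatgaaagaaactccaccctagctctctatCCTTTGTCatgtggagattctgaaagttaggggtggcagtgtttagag
Sox6, chr7:115501735-115501822, minus strand: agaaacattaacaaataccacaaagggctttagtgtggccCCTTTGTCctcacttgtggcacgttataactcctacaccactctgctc
Sox13, chr1:133418189-133418276, minus strand: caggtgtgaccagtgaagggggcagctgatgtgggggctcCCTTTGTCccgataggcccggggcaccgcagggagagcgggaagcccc
Sox9, chr11:112769833-112769920, plus strand: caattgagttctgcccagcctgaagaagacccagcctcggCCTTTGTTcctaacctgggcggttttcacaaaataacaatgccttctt
Sox21, chr14:118202134-118202221, minus strand: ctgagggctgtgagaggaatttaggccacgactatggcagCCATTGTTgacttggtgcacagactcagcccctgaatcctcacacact
These matches read CCTTTGTC at Sox5, Sox6 and Sox13, CCTTTGTT at Sox9 and CCATTGTT at Sox21. The peaks that hold them were 1001, 198, 1060, 154 and 562 bp wide in the order shown. A second peak near Sox21, 1077 bp wide and 16596 bp upstream of its 5′ end, held 3 central matches, the most of the 155 peaks. Of all peaks in the list, 21 (0.0205%) had at least 3. It lay in an intron of Gm4675, a non-coding gene, close to one of that gene's starts, and was chosen for display after its values were seen.
Sox21, chr14:118253512-118253730, plus strand: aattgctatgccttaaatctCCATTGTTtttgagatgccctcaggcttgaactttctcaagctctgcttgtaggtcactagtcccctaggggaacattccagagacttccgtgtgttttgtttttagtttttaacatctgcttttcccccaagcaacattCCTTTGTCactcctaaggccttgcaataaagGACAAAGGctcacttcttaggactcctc
The first pair of matches lies on the plus strand and the last, GACAAAGG, is CCTTTGTC on the minus strand.

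The 10 windows together held 5.96 peaks per 100 kb, against 3.87 per 100 kb of assembled sequence over the whole list. The windows hold genes by construction, so genes are the closer reference. Over 21938 protein-coding genes with the same margin, the median was 6.97 peaks per 100 kb, with quartiles of 2.87 and 11.5. That median counts each gene once, while the pooled 5.96 weights genes by window length. Sox5 and Sox6 have the longest windows, 1054 and 668 kb, so the pooled value and the median are not like for like. Of the members, 6 lay above that median, 4 of them above the upper quartile, and none below the lower quartile.

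**Figure D1:**
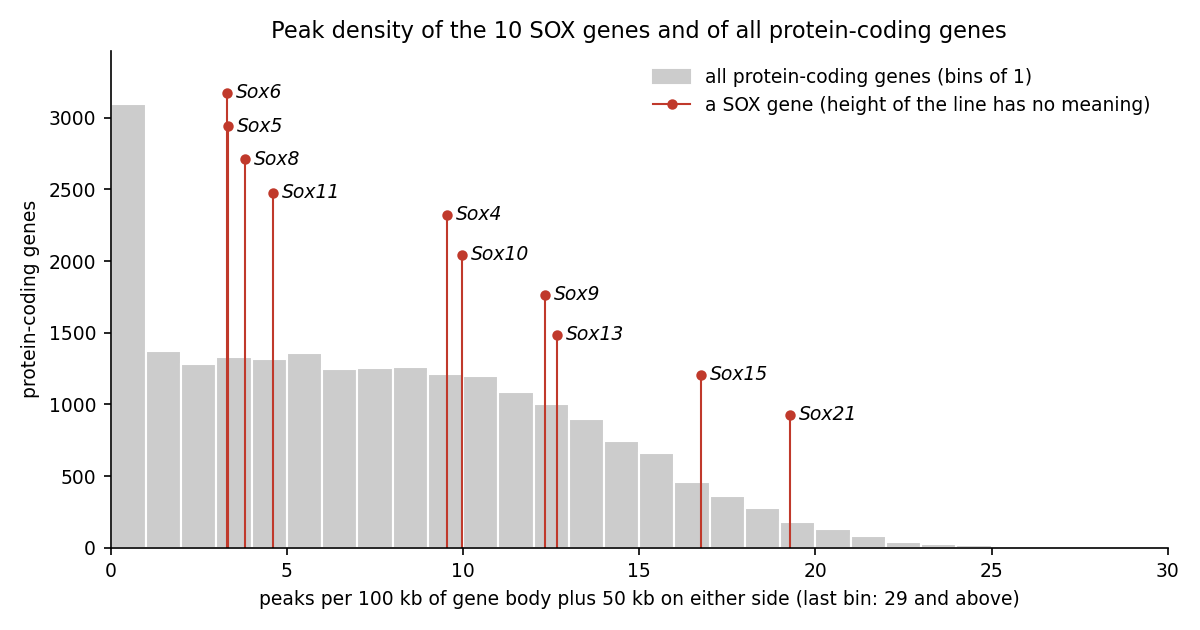
Number of protein-coding genes (vertical axis) by peaks per 100 kb of the gene body plus 50 kb on either side (horizontal axis), in grey, with each SOX gene marked by a red line whose height has no meaning. Sox21 and Sox15 stand at the upper end with 19.3 and 16.8, and Sox5 and Sox6 near the lower quartile of 2.87 with 3.32 and 3.29.

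The order from the highest density was Sox21 (19.3 peaks per 100 kb), Sox15 (16.8), Sox13 (12.7), Sox9 (12.3), Sox10 (9.97), Sox4 (9.54), Sox11 (4.62), Sox8 (3.82), Sox5 (3.32) and Sox6 (3.29). With a single merged list no spread between libraries can be given for these values, so it is not known which neighbours in the order differ. Sox21 had a higher density than 97.9% of protein-coding genes and Sox15 than 94.4%. Sox5 and Sox6 were higher than 27.7% and 27.5%, but both genes are very long, and long genes had low densities as a class. Among the 230 protein-coding genes of at least 500000 bp, a class set after the values were seen, the median was 1.52 per 100 kb, and Sox5 was higher than 82.2% and Sox6 than 81.7% of them. Gene length does not enter the count within 50000 bp of the 5′ end. By that count Sox5 had 2 peaks, more than 16.3% of protein-coding genes, and Sox6 had 7, more than 46.7%.

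Of the 155 peaks, 42 were promoter-proximal, that is at most 1000 bp from a TSS of any gene (27.1%, Wilson interval 20.7 to 34.6), and the background over all peaks was 25.1%. At a start of the SOX gene itself stood 19 peaks, and 23 stood at starts of other genes only. The remaining 113 were distal, 61 of them centred in introns and 43 between genes. By place, 36 peaks lay upstream of the member, 69 overlapped it and 50 lay downstream.

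These shares differed between isolated and crowded loci, but the grouping fixed part of this in advance. Isolated loci were chosen for having no other coding gene nearby, so few starts of other genes can lie in their windows. Over the whole list, 76716 of 102373 peaks were distal. Sox4, Sox11, Sox5 and Sox9 had no other protein-coding gene within 50000 bp, and 54 of their 63 peaks were distal, with 2 at starts of other genes only, both at Sox9 and both of non-coding genes. The other 6 members had at least 1 such neighbour, and of their 92 peaks 59 were distal and 21 stood at starts of other genes only. Over all members, the nearest protein-coding TSS belonged to the SOX gene for 116 peaks. Nearness does not show which gene a peak acts on.

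**Figure D2:**
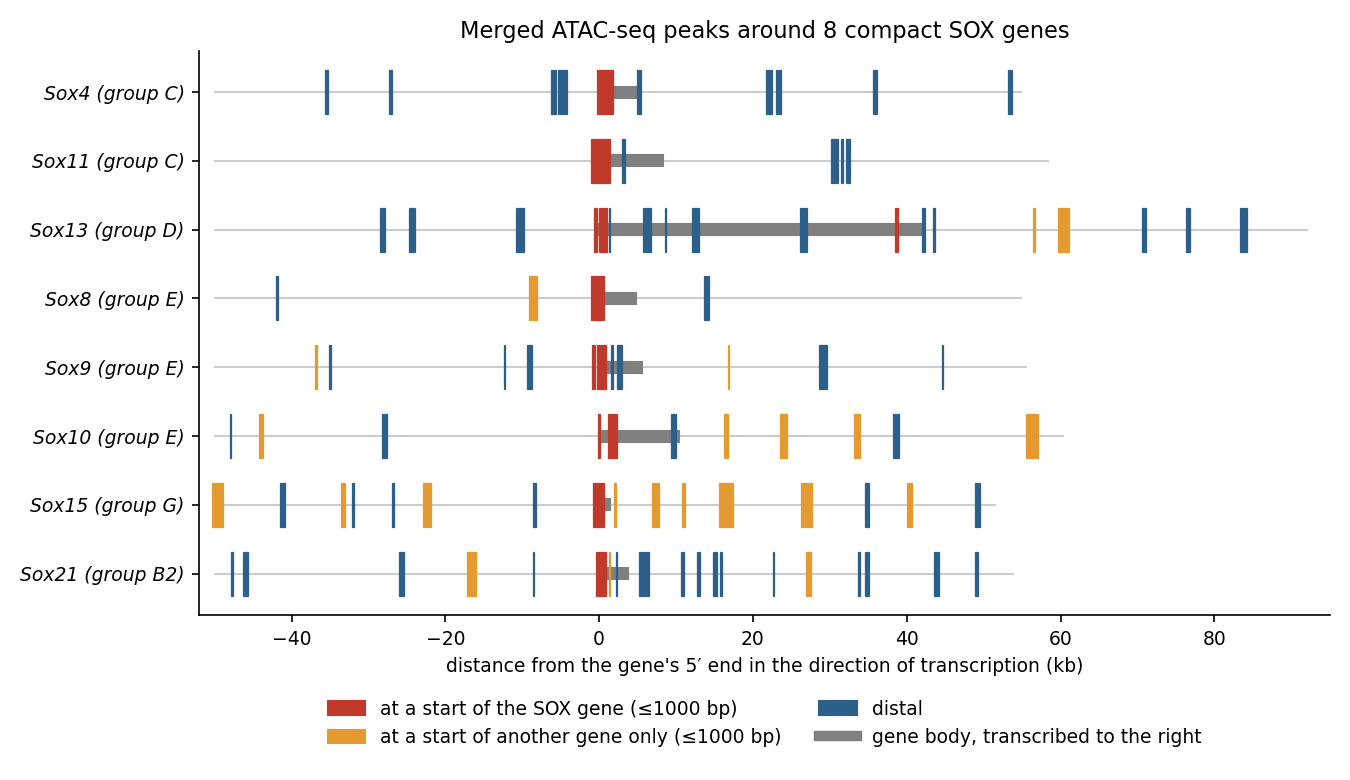
Peaks around the 8 members shorter than 50 kb, drawn to scale along the distance from the gene's 5′ end in kb, with grey boxes for gene bodies and thin grey lines for the windows. Red peaks stand at a start of the SOX gene, orange ones at a start of another gene only and blue ones are distal. Sox21 is surrounded by distal peaks, Sox15 by peaks at other genes' starts, and Sox11 and Sox8 have few peaks of any kind.

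At promoters the members were alike in having a peak and differed in its merged width. All 10 had a peak at most 1000 bp from one of their annotated starts, where 70.4% of protein-coding genes had one. Members with many annotated starts, such as Sox6 with 13 and Sox5 with 12, had more chances to meet this rule, and of the 41 start positions of the 10 genes 25 had a peak that near. For 9 of 10 the 5′ end of the gene lay inside a peak, where the background was 58.8%. The exception was Sox6. The widest start peak of a member had a median of 1498.5 bp and ranged from 1095 to 2470 bp, beside a median of 1102 bp (quartiles 875 and 1349) over the 15453 protein-coding genes with a start peak. Those of Sox10, Sox13 and Sox9, with 1095, 1155 and 1166 bp, were close to that median. Of the 19 peaks at members' starts, 8 also lay at a start of another gene.

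The SoxC genes had the widest start peaks. The peak at Sox11 measured 2470 bp (chr12:27341199-27343668), wider than the start peak of 99.4% of protein-coding genes that had one, with a GC content of 66.6%. At Sox4 it measured 2079 bp (chr13:28951905-28953983), wider than 97.7%, with a GC content of 64.8%. In both the ratio of observed to expected CpG was high, 0.954 and 0.898, where the median over all promoter-proximal peaks was 0.582. Each gene consists of a single exon, and both peaks reached from upstream of the start into the transcribed part.

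Away from their starts the SoxC genes differed. Sox4 had 9 distal peaks on both sides, with a median width of 612 bp. The widest, 1215 bp, lay 4744 bp upstream and a 625 bp peak 5920 bp upstream, and with the start peak and a 527 bp peak downstream these formed a run of 4. The most distant peak downstream, 524 bp wide, belonged to a run of 6 whose other peaks lay outside the window. An exact octamer, ATGCAAAT, was present in a peak of 398 bp that lay 27080 bp upstream. Sox11 had 4 distal peaks. One of 375 bp lay in the exon and 3 lay together between 30601 and 32369 bp downstream of the 5′ end, the widest of them with 974 bp. No peak was listed in the 50000 bp upstream of Sox11 other than the start peak.

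**Figure D3:**
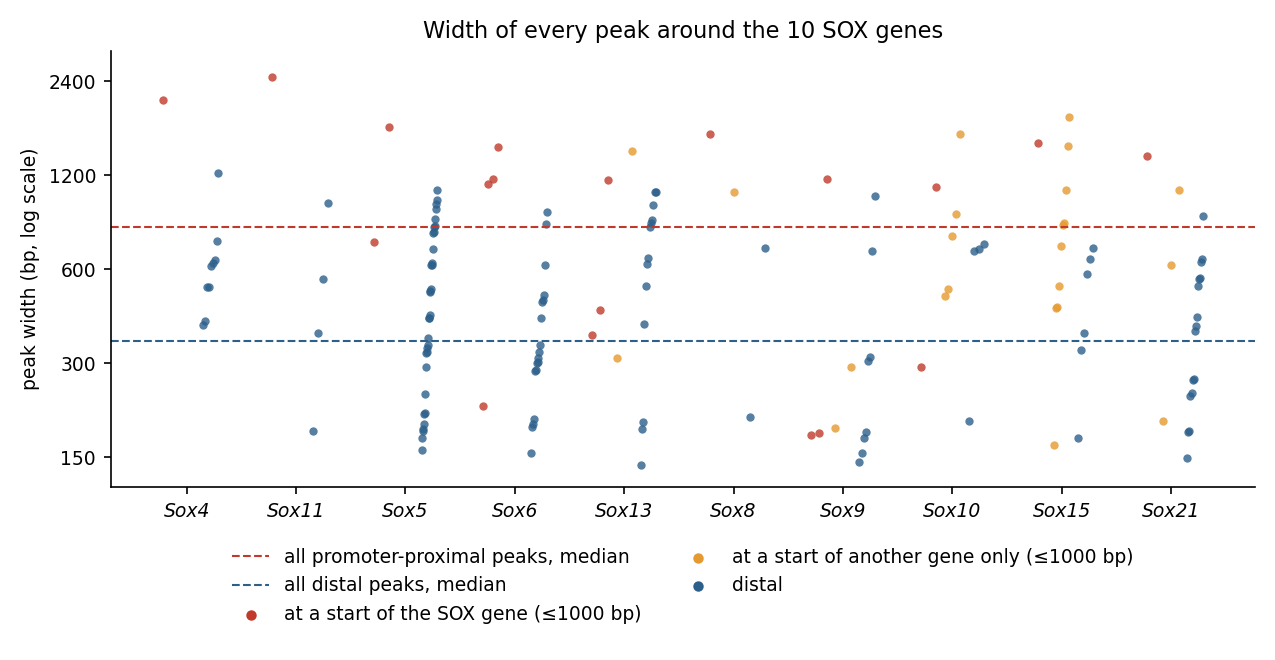
Width of every peak of the 10 members in bp on a log axis, in red at a start of the SOX gene, in orange at a start of another gene only and in blue for distal peaks. Dashed lines give the medians over all promoter-proximal (815 bp) and all distal peaks (352 bp) of the list. The start peaks of Sox11 and Sox4 are the widest points, and Sox9 has many peaks under 300 bp.

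The 3 SoxD genes include the longest members. Sox5 spans 953553 bp on chromosome 6 and had 35 peaks, 31 of them overlapping the gene. A peak of 1714 bp covered its 5′ end (chr6:144781292-144783005) and held a SOX match in its centre. The transcripts annotated there are non-coding forms of the gene. Protein-coding transcripts that start 572409 to 572525 bp further in had a peak of 730 bp at a distance of 691 to 807 bp. The starts of the shortest forms, 834871 to 834889 bp from the 5′ end, had their nearest listed peak 20822 to 20840 bp away. The accessibility of a start that has no peak nearby is unknown, because signal between peaks is not part of these data.

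Within Sox5 the peaks were not spread evenly. Between 320 and 580 kb from the 5′ end lay 19 of the 35 peaks, all in introns, including the peak near the internal starts and a run of 5 peaks within 13.5 kb. In contrast, the longest stretch of the gene without a peak measured 110246 bp. The widest distal peak had 1076 bp and lay 420442 bp from the 5′ end. A peak of 932 bp at 327423 bp held a pair of SOX matches in its centre. Downstream of the gene, a 783 bp peak consisted to 94.5% of soft-masked repeats, in which reads are harder to place.

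**Figure D4:**
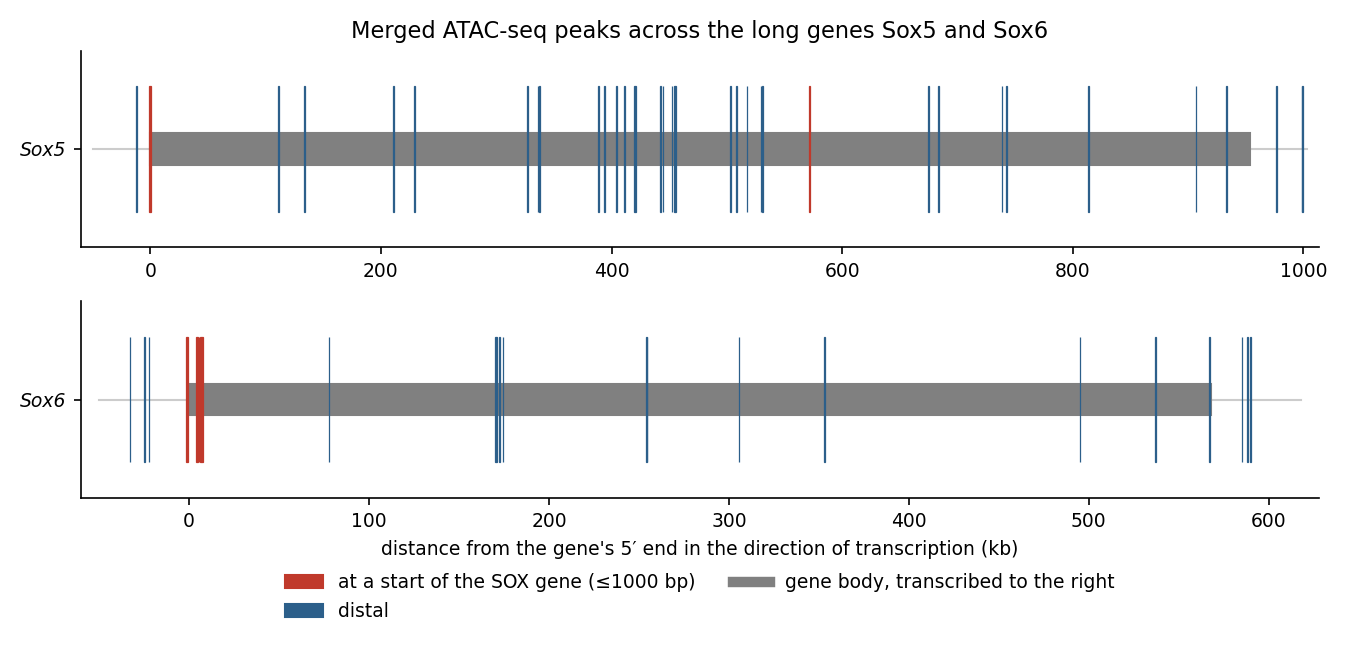
Peaks across Sox5 and Sox6 along the distance from the 5′ end of each gene in kb, with the gene body as a grey box, peaks at starts of the gene in red and distal peaks in blue. Very narrow peaks are drawn with a line of fixed width. In Sox5 most peaks lie in the middle part of the gene between 320 and 580 kb, whereas in Sox6 the red peaks are gathered at the 5′ end.

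Sox6 spans 567925 bp on chromosome 7 and had 22 peaks. Its 5′ end was 751 bp from a peak of 1125 bp, which lay over the start of 1110004F10Rik, a gene on the opposite side only 600 bp away. Further in, 3 more peaks stood at Sox6 starts, with widths of 1166, 218 and 1475 bp, centred 4518, 5359 and 6799 bp from the 5′ end. The widest of these covered a start of the antisense gene Sox6os and lay 213 bp from the nearest Sox6 start. Position alone does not show which gene's start this peak marks. Of the 13 annotated start positions of Sox6, 5 had a peak within 1000 bp.

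The 18 distal peaks of the Sox6 window had a median width of 319 bp, beside 352 bp over all distal peaks of the list. A stretch of 141576 bp inside the gene held no peak. A compact group of 4 peaks within 4.38 kb lay between 170263 and 174323 bp from the 5′ end. It included the 915 bp peak with the OCT4::SOX2 match printed above and, centred at 170902 bp, a peak of 326 bp with an exact octamer. Both motif matches of Sox6 that involve the octamer were thus in neighbouring peaks of 1 intronic group.

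Sox13, on chromosome 1, had 18 peaks, or 12.7 per 100 kb, more than 80.8% of protein-coding genes. Its 5′ end lay in a peak of 1155 bp (chr1:133423295-133424449), which had the highest GC content of all start peaks here, 73.2%, and a peak of 369 bp lay just upstream. Together with intronic and upstream peaks these formed a run of 7 within 23.8 kb. Distal peaks of Sox13 were wide, with a median of 649 bp and a maximum of 1062 bp in a peak 10317 bp upstream, and 2 of them in introns, 840 and 1060 bp, held a SOX match. At the 3′ end stood 3 neighbouring peaks of 194, 399 and 443 bp that each had a CTCF match, the last of them at an internal start of Sox13. CTCF is the factor known for marking the ends of chromatin loops. Beyond them, peaks of 1433 and 312 bp stood at starts of the neighbour Etnk2, and the 312 bp peak held a SOX match. The remaining SOX match of this window was in a 959 bp peak nearest to Ren1.

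Among the SoxE genes Sox9 had the most peaks, 13, and the narrowest, with a median of 186 bp over all of them and 8 under 300 bp. A peak of 1166 bp covered its 5′ end (chr11:112781929-112783094), and peaks of 179 and 177 bp lay just upstream of it. Over the gene body and its upstream flank these belonged to a run of 8 peaks within 15.4 kb. In this run, peaks of 305 and 314 bp over coding sequence were only 3 bp apart, so the count of peaks here depends on where neighbouring regions are split. The upstream peaks lie within intronic sequence of BC006965, a non-coding gene that also has a start near that of Sox9. The 1027 bp peak with the OCT4::SOX2 match was the widest distal peak of Sox9 and stood alone, with no other listed peak within 10000 bp.

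Sox10 and Sox8 had more modest surroundings. At Sox10 a narrow peak of 292 bp covered the 5′ end (chr15:79165114-79165405), the narrowest peak at a 5′ end among the members, with a CpG ratio of 0.125. A wider peak of 1095 bp lay in the first part of the gene, centred 1749 bp downstream and 436 bp from an internal start. Of its 11 peaks, 5 stood only at starts of other genes, namely Micall1, Polr2f, 1700088E04Rik and Gm10863, and the peak over the 5′ end also lay at a start of Gm10863. The widest distal peak had 723 bp and lay 27894 bp upstream, and a run of 7 peaks extended over 39.1 kb from the 5′ end downstream. The peaks of 695 and 491 bp with a CTCF match lay in Micall1 and Polr2f, on the downstream side of Sox10. Sox8 had the fewest peaks, 4, or 3.82 per 100 kb. Its start peak measured 1628 bp (chr17:25570121-25571748), wider than that of 89.7% of genes with one, and was shared with a start of the non-coding gene 2810468N07Rik. The remaining ones were a 700 bp peak downstream and peaks of 1059 and 202 bp at the start and in an intron of Lmf1, and no run exceeded 2 peaks.

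Sox15 lies in a gene-rich part of chromosome 11, with 11 other protein-coding genes within 50000 bp. It had 17 peaks, 11 of them in a run of 18 over 82.9 kb. Of the 17, 10 stood at starts of other genes, 6 were distal and 1 was at its own start. That peak measured 1522 bp (chr11:69654461-69655982), and it was the only one with Sox15 as the nearest protein-coding TSS. Its CpG ratio, 0.422, was the lowest among the members' widest start peaks. The widest peak of the window, 1839 bp, lay at Eif4a1, which encodes a translation initiation factor, and peaks at Atp1b2, Sat2, Fxr2, Mpdu1, Cd68, Senp3 and Tnfsf12 accounted for others. The widest distal peak had 703 bp. The 3 CTCF matches were at 26808 and 41213 bp upstream and 2073 bp downstream of the 5′ end.

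Sox21, on chromosome 14, had the densest window, with 20 peaks in 103.799 kb. In contrast to Sox15 it had 1 other protein-coding gene within 50000 bp, 16 peaks were distal, and for 16 the nearest protein-coding TSS was that of Sox21. The start peak measured 1379 bp (chr14:118236128-118237506) and overlapped a start of the non-coding gene Gm4675. A run of 28 peaks, with gaps of at most 10000 bp, extended over 130.64 kb (chr14:118132381-118263020), and 18 of its peaks lay in the window. Runs of at least that number held 1.03% of all peaks in the list. On the downstream side stood 12 peaks, on the upstream side 5. The distal ones were of ordinary width, with a median of 387 bp, the widest having 885 bp at 5592 bp from the 5′ end. Peaks with a CTCF match lay 27250 and 33748 bp downstream.

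Other sequence motifs were found in few of the members' peaks. An exact octamer was in the centre of 3 peaks (1.94%, background 1.16%), at Sox4, Sox6 and Sox9. A CTCF match, with up to 1 mismatch, was in 10 peaks (6.45%, Wilson interval 3.54 to 11.5, background 8.09%), at Sox13, Sox15, Sox10 and Sox21 only. A KLF match was in 7 peaks (4.52%, background 4.24%). The ESRRB motif TCAAGGTCA was in none of the 155, which allows a share of up to 1.94% if 3 counts are taken as the limit of a count of 0 (Wilson upper limit 2.42%), and the background was 1.37%. The background lay inside the counting interval for each of these 4 motifs, so no difference was detectable with this number of peaks.

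The median width of the members' peaks was above that of the list, beyond its counting interval over all and over distal peaks, but not over promoter-proximal ones. It was 516 bp (interval 419 to 618) beside 415 bp over all peaks. Without Sox5 it was 525.5 bp (408 to 624) and without Sox15 501 bp (399 to 612), and both of these intervals include 415 bp. Split by class, distal peaks had a median of 421 bp (361 to 531) against 352 bp and promoter-proximal ones 837.5 bp (518 to 1125) against 815 bp. The median GC content was 49.0% against 48.6% in distal peaks and 58.7% against 57.4% in promoter-proximal ones. Fewer of the members' peaks were under 300 bp, 26.5% (20.1 to 33.9) against 35.8%. The intervals treat peaks as independent, although neighbouring peaks share a locus, and they cover counting error only.

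The sequence just before the start is shown for 5 members whose RefSeq start lay in a peak. Bases annotated as untranslated in GENCODE were left out, which shortened the stretch of Sox4 and removed that of Sox13. The RefSeq starts of Sox5 and Sox6 did not lie in a peak, and Sox9 and Sox10 had no entry in the table used. Each sequence is up to 100 bases long, is taken from RefSeq (GRCm38.p6) and ends before the RefSeq start, or before the GENCODE start for Sox4. Capitals mark known promoter elements on either strand, namely the CCAAT box (ATTGG when reversed), a box reading TATAAA, or the GC box GGGCGG.
Sox4, chr13:28953714-28953799, minus strand: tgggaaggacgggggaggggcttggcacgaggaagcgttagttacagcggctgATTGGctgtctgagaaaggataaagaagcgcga
Sox11, chr12:27342719-27342818, minus strand: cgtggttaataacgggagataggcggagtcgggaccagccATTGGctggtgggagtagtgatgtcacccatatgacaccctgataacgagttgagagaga
Sox8, chr17:25570687-25570786, minus strand: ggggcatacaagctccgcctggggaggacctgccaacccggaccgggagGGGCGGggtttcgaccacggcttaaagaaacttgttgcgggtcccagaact
Sox15, chr11:69654937-69655036, plus strand: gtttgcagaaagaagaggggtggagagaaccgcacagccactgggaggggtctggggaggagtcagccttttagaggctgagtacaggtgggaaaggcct
Sox21, chr14:118237031-118237130, minus strand: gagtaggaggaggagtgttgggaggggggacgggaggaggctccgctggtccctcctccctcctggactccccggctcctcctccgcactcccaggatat
Both SoxC promoters hold ATTGG in the printed part, and in the full window of 300 bases, from 250 before to 50 after the start, Sox4 had 4 CCAAT matches and Sox11 had 1. Such a match was present in 37.4% of 32851 RefSeq promoter windows. No TATAAA was found in these 5 windows, where 13.6% of all windows had it. GGGCGG was found at Sox11 and Sox8, with 2 matches each, where 35.7% of all windows had at least 1. The SOX motif was in 4.83% and the octamer in 1.74% of all windows and in neither case in these 5. Among all 13 windows of 8 members in the table, 2 had the SOX motif and 2 had TATAAA, all of them windows of Sox6. A window without these letters says nothing of what binds there.

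The 10 other SOX genes gave a range of the same kind. A peak stood at a start of 9 of them, and Sry, on chromosome Y, had none in its window. Sox12 (16 peaks), Sox2 (15), Sox1, Sox18 and Sox30 (11 each) had the most, and Sox17 had 7, Sox14 6, Sox3 2 and Sox7 2. Their widest start peaks measured from 1115 bp at Sox1 to 2078 bp at Sox17, so that of Sox11 was wider than any of these and that of Sox4, with 2079 bp, was 1 bp wider than that of Sox17. An OCT4::SOX2 match was found in the centre of 1 of the 81 peaks near these genes, at Sox30, beside 2 of the members' 155.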

How the data were processed

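According to the methods of the study and the processing notes in the labels, the authors aligned reads to GRCm38 with STAR 2.6.1c, removed duplicates with Picard, called peaks with MACS2 2.1.1.20160309 and used BEDTools to merge those of every library with dox. The deposited file holds 3 columns of coordinates and no counts, so depth is unknown here. The methods describe filters on input peaks, blacklisted regions and peaks over 5000 bp, but the deposited list retains peaks over 5000 bp, none of them around these genes, and the other filters could not be tested.

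Coordinates are given in GRCm38 and counted from 1. Genes and starts were taken from GENCODE M21, and an overlap of 1 bp counted. Percentiles give the share of protein-coding genes with a lower value. The KLF and CTCF consensus sequences had 10 and 14 letters, and CTCF was allowed 1 mismatch. A run is a chain of peaks with gaps of at most 10000 bp. Intervals are 95% Wilson intervals for shares and binomial order-statistic intervals for medians. Every member is named, with its start peaks, its widest distal peak, its longest run and each OCT4::SOX2 match. The members, lists and rules were chosen with earlier results of these data known. Functions were tested on simulated data. Figures were drawn with matplotlib 3.10.9, and values were computed with scipy 1.17.1, pandas 2.3.3 and numpy 2.4.6 in Python 3.11.15.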

Additional observations from a re-analysis of the deposited data

How the results depend on the processing

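No paired analysis was possible because merged coordinates carry nothing measured in a single replicate. For the 8 summary results 48 alternatives were computed, and 31 stayed within the main interval or, for counts, within 1.5 times the main count. All 10 members kept a peak at a start with 500 or 2000 bp, with protein-coding transcripts alone, with peaks of at least 300 bp and with close peaks joined.

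The number of peaks followed the window, with 69 for gene bodies only, 91 with a margin of 10000 bp, 242 with 100000 bp and 100 within 50000 bp of the gene start. Peaks per 100 kb were 4.31 for gene bodies, 5.05 with 10000 bp and 10.00 around the gene start, where the length of Sox5 and Sox6 no longer enters. Around the start, protein-coding genes had a median of 7 peaks, with quartiles of 3 and 12. The 10.00 pools all members and is not like for like with that median. Single members ranged from 2 peaks at Sox5 to 20 at Sox21. Without Sox5, an alternative added after seeing the data, the density over the full windows was 7.75 per 100 kb. Without Sox15 the density stayed within its main interval. Without Sox5 or without Sox15 the same held for the promoter-proximal share, the median width and the SOX share. Both of these median widths, however, had intervals that include the 415 bp of the whole list. The other results were not computed without these genes.

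With peaks of at least 300 bp, 114 of the 155 peaks remained, the density was 4.38 per 100 kb and 6 of the 114 had a CTCF match. Neither value was computed over all genes or peaks with this filter, so no change in CTCF content can be read from the count. The median width was then 641.5 bp, with an interval of 580 to 723 that includes the 603 bp over all such peaks. Counting starts of protein-coding transcripts only lowered the promoter-proximal share to 18.1%, beside 17.6% over the list. The SOX motif was in 20.6% of whole peaks, beside 12.7% over the list, which lay below the members' interval. A whole-peak search covers more bases in wider peaks, and the members' peaks had a higher median width than the list. The whole-peak shares therefore cannot separate motif frequency from peak width. In peak centres, which have equal length, the background lay inside the members' interval, as given above. The shorter core CATTGT or CTTTGT was in 28.4% of peak centres, beside 28.7%. Whole peaks gave 17 CTCF matches (11.0%, beside 13.0% over the list), and an exact CTCF consensus left 2 (1.29%, beside 2.47%). With at most 1 mismatch, 1 OCT4::SOX2 match was left, that of Sox9.

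Whether a peak is present in few or many libraries, and its signal, could not be read from the list.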
